A study of Mus musculus with 38 samples.

Results

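The genes described here are 10 genes of brain lipid handling, namely Apoe, Clu, Apod, Lpl, Lrp1, Abca1, Abcg1, Ch25h, Soat1 and Plin2. They were chosen by name, with earlier results of these data known, as apolipoproteins, a lipase, a receptor, exporters, sterol-modifying enzymes and a droplet coat protein. They were found by their Ensembl identifiers among the 48709 genes counted in the hippocampus of 38 mice. All 10 had reads in every mouse. The mice fell into 8 groups by cohort, genotype and chow. All mice were on the C57BL/6 strain and were either wild type (WT) or APPPS1ΔE9, a transgenic model of Alzheimer's disease that carries transgenes and deposits amyloid plaques. They were fed chow with anle138b, a small molecule that modulates protein aggregation, or placebo chow without it. In the pre-plaque group, chow was given between 2 and 6 months of age, up to the analysis, and there were 4 mice for each genotype and chow. In the post-plaque group, chow was given between 6 and 10 months of age, up to the analysis. Here 5 WT mice had placebo and 5 had anle138b, and of the APPPS1ΔE9 mice 5 had placebo and 7 had anle138b. In this model the transgenes are driven by the mouse prion promoter wherever that promoter is active, and not by the promoters of the mouse's own genes.

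Cholesterol hardly crosses the blood-brain barrier, so the brain makes its own and moves it between cells on small lipoproteins. Astrocytes and microglia load these particles with lipid through the transporters ABCA1 and ABCG1, the particles carry APOE and CLU as their main proteins, and neurons take them up through receptors such as LRP1. APOE and CLU are both genes in which common variants alter the risk of late-onset Alzheimer's disease, and several genes of this pathway belong to the program that microglia switch on around plaques.

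Ch25h, which encodes cholesterol 25-hydroxylase, the enzyme that makes the signaling oxysterol 25-hydroxycholesterol, was the only member that passed edgeR's test in any comparison of groups without a covariate, at an adjusted p under 0.1. In the post-plaque group, it was 2.72-fold higher in APPPS1ΔE9 than in WT mice. A filter on low counts kept it only through the APPPS1ΔE9 mice, and it was also called without that filter (edgeR, adjusted p = 0.000151). Apoe was 1.18-fold and Lpl 1.39-fold higher in the same comparison, and neither passed edgeR's test across all genes, while both passed in DESeq2. Clu, Apod, Lrp1, Abca1, Abcg1, Soat1 and Plin2 did not pass edgeR's test in any comparison of genotype or chow, although Plin2 passed in anle138b-treated mice at 10 months with Y-linked expression as a covariate. No member passed edgeR's test in a comparison of anle138b-treated with placebo-treated mice, and DESeq2 called Apoe there in APPPS1ΔE9 mice at 6 months.

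The depth ranged from 15847985 to 31895808 counted reads, at a median of 24530658. The genotype labels were checked with App and Prnp, which also count reads from the transgenes and their prion vector. App was between 1504 and 1808 CPM (counts scaled to a common library size by TMM) in the 18 WT mice and between 3226 and 4314 CPM in the 20 APPPS1ΔE9 mice, with no overlap, and Prnp did not overlap either. For the 4 WT mice on placebo at 6 months, the title gives WT but the genotype label names the transgene, and they were used as WT. App lay at the WT level in all 4. Markers of the hippocampus were present in every mouse, with a summed level of 295 to 469 CPM for 4 pyramidal cell genes and 207 to 571 CPM for 4 dentate granule cell genes. Y-linked genes were expressed in 26 mice and absent in 12, and 11 of these 12 were WT, so Y-linked expression and genotype were partly confounded. The study's methods give all mice as male, which the absence of Y-linked reads in these 12 goes against. In the post-plaque group, WT libraries were run on lanes 3 and 4 and APPPS1ΔE9 libraries on lanes 5 and 6, so lane and genotype cannot be told apart there. At 6 months the APPPS1ΔE9 mice on placebo were all on lane 5 and those on anle138b all on lane 6, so chow and lane cannot be told apart in that comparison. The WT mice on anle138b at 6 months were on lanes 4 and 5. Lane and genotype therefore cannot be told apart in anle138b-treated mice at 6 months. Since whole hippocampus was used, fewer cells of a type and less RNA per cell cannot be told apart.

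Levels of the members were compared per length, as RPKM, the CPM divided by the length of the exons in kilobases. Apoe had the highest median level over the 38 mice, 557 RPKM, followed by Clu with 275 RPKM, a secreted chaperone also called apolipoprotein J. Apod, a small lipid-binding lipocalin of oligodendrocytes and other glia, had a median of 66.4 RPKM and Lrp1, the large endocytic receptor for APOE particles, a median of 32.1 RPKM. These 4 levels did not overlap between neighbouring genes in that order, except that the lowest level of Apod, 36.7 RPKM, lay below the highest of Lrp1, 39.3 RPKM.

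The sterol exporter Abcg1, which adds lipid to existing particles, had a median of 8.04 RPKM. Lpl, the lipase that frees fatty acids from triglyceride-rich particles, had a median of 7.47 RPKM and Abca1, which starts particle formation, a median of 6.65 RPKM. These 3 ranges overlapped. Soat1, which esterifies cholesterol for storage, was between 3.34 and 4.47 RPKM, and Plin2, the coat protein of lipid droplets, had a median of 1.71 RPKM. Ch25h was by far the lowest, with a median of 0.324 RPKM, from 2 to 37 counts per mouse, so each value of it carries a large counting error. Soat1 did not overlap with Abca1 above it or Plin2 below it, and Plin2 did not overlap with Ch25h. Over all mice, the highest CPM of Ch25h was 13.2 times its lowest, while this ratio was 3.90 for Lpl, 2.54 for Apod, 2.37 for Plin2 and between 1.34 for Soat1 and 1.78 for Apoe in the other 6 members.

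**Figure D1:**
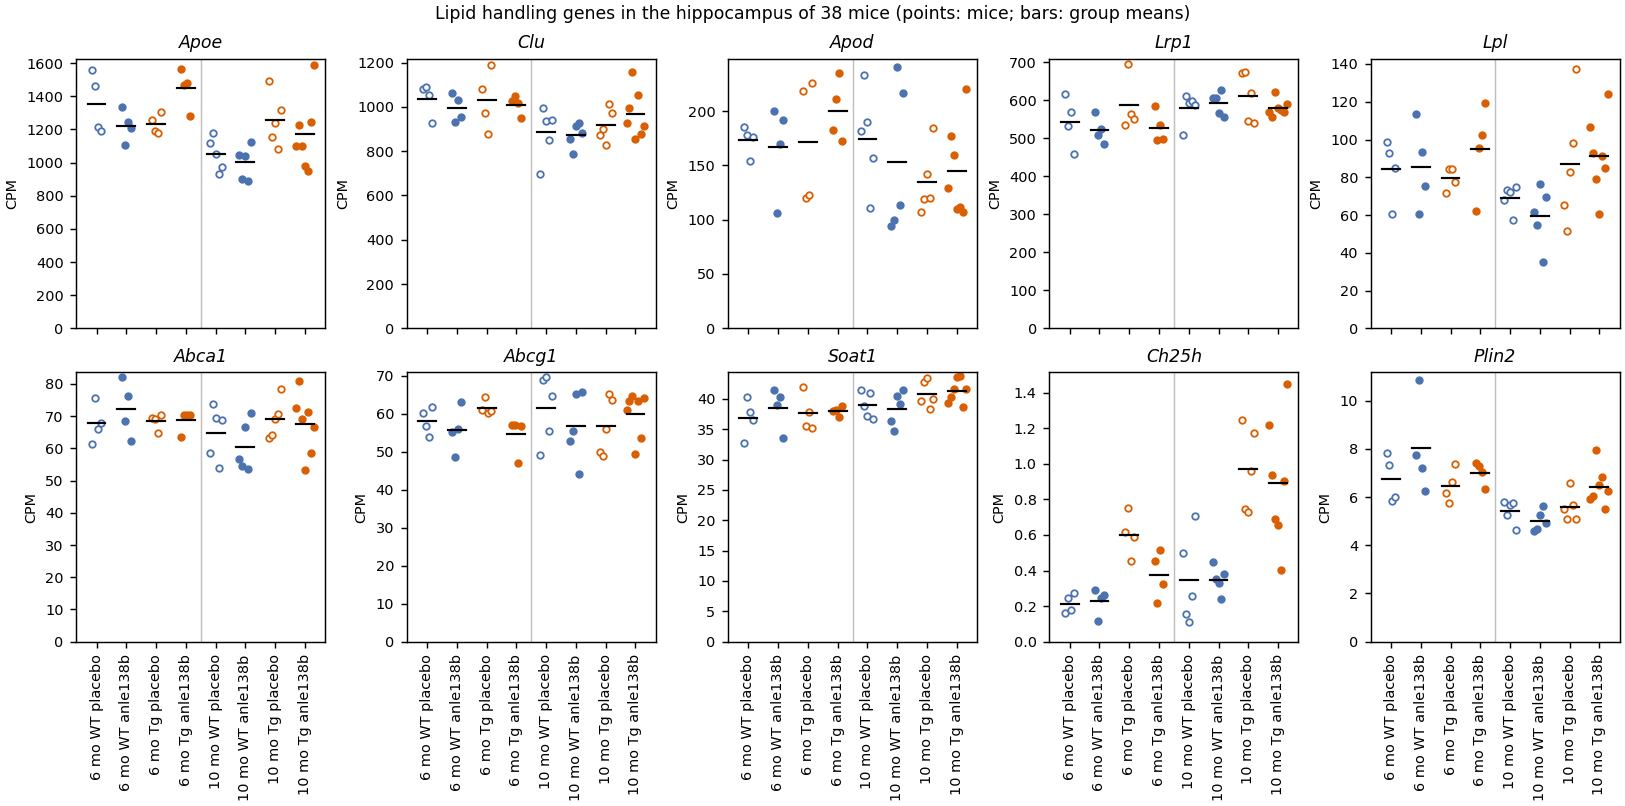
Level of each of the 10 members in CPM (linear axes from 0, 1 panel per gene) in the 38 mice by group, where points are mice, bars group means, open points placebo and filled points anle138b, blue WT and orange APPPS1ΔE9 (Tg). Apoe lies between 891 and 1590 CPM and Ch25h between 0.109 and 1.45 CPM.

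Ch25h is a gene without introns on chromosome 19, at chr19:34473778-34475164 on the minus strand of GRCm38. A lncRNA gene on the plus strand, Gm26902, overlaps 357 bases of it and covers the bases before its start. The window of 250 bases before the RefSeq start of Ch25h, chr19:34475149-34475398 on the minus strand of GRCm38.p6, is shown because Gm26902 covers all of it. Capitals mark its match to TATAAA, which begins 151 bases before the start.

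Ch25h: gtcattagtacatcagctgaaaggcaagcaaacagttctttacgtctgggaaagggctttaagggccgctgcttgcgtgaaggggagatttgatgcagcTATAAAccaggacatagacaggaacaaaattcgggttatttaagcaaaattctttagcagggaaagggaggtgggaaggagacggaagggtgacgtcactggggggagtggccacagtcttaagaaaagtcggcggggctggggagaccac

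RefSeq had such windows for 7 of the 10 members, 9 windows in all, since Apoe has 3 starts. Apoe is on chromosome 7, at chr7:19696109-19699188 on the minus strand of GRCm38, and the window before its first start, chr7:19699189-19699438 on the minus strand of GRCm38.p6, is shown because Apoe is the most abundant member. Its capitals mark a match to GAGGAA, the core bound by the myeloid factor PU.1, at its first base.

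Apoe: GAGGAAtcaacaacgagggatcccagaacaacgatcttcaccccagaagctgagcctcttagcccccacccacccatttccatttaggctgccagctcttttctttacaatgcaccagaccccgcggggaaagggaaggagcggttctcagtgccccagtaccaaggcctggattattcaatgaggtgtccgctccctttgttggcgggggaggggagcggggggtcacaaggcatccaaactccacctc

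Both strands of all 32851 RefSeq windows were searched for 7 motifs. TATAAA was in 12.4% of all windows and in 3 of the 9 member windows, of Abca1, Apoe and Ch25h. GAGGAA was in 23.3% of all windows and 3 member windows, and CCAAT in 33.8% and 2 member windows, of Soat1 and Plin2. None of the 9 held the sterol regulatory element TCACNCCAC (1.05% of all windows), the direct repeat bound by the liver X receptor (0.0152%), the interferon response motif GAAANNGAAA (2.98%) or the NF-kB core GGGACTTTC (0.289%). None of the 7 motifs contains another.

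The question of the comparison of genotypes was how these genes stand in APPPS1ΔE9 mice at 6 and at 10 months of age. The cohorts are named for the stage at which chow was started. The paper counted plaques at the time of analysis in both, so neither comparison shows the genes before plaques form. In the pre-plaque group, Ch25h was 0.160, 0.247, 0.178 and 0.273 CPM in the 4 placebo-treated WT mice and 0.615, 0.752, 0.454 and 0.588 CPM in the 4 placebo-treated APPPS1ΔE9 mice. Every APPPS1ΔE9 mouse lay above every WT mouse. The level was 2.83-fold higher, on the log2 scale with an SE of 0.32, with an unadjusted p of 0.000429 and an adjusted p of 0.240 in edgeR's quasi-likelihood test, so it did not pass the threshold of 0.1 over all 16774 genes tested. The counts were 4 to 6 in the WT and 8 to 19 in the APPPS1ΔE9 mice, so Ch25h was tested here through the counts of the APPPS1ΔE9 mice. Without the filter on low counts the edgeR adjusted p was 0.0967. The WT mice were on lane 4 and the APPPS1ΔE9 mice on lane 5, and with lane as a term, which the WT mice on anle138b link, the difference was 1.24 ± 0.68 (SE).

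With anle138b at 6 months, the mice had 0.293, 0.114, 0.246 and 0.264 CPM of Ch25h if WT and 0.455, 0.218, 0.514 and 0.323 CPM if APPPS1ΔE9. These ranges overlapped. The filter on low counts removed Ch25h from this comparison, and without it the difference was 0.69 ± 0.43 (SE) with an unadjusted p of 0.128 in edgeR's test. With the mean taken over both chows, the genotype difference of Ch25h at 6 months was 1.08 ± 0.30 (SE), with an adjusted p of 0.267 (edgeR, 8 groups in a single fit).

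In the post-plaque group, Ch25h was 0.499, 0.155, 0.109, 0.257 and 0.706 CPM in the 5 placebo-treated WT mice and 1.25, 0.746, 0.730, 0.962 and 1.18 CPM in the 5 placebo-treated APPPS1ΔE9 mice. The groups did not overlap, although the highest WT mouse and the lowest APPPS1ΔE9 mouse lay close together. Anle138b-treated WT mice had 0.446, 0.352, 0.330, 0.239 and 0.379 CPM, and the 7 anle138b-treated APPPS1ΔE9 mice had a lowest value of 0.403, a median of 0.902 and a highest of 1.45 CPM. Here the lowest APPPS1ΔE9 mouse lay below the highest WT mouse.

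Over both chows, Ch25h averaged 0.347 ± 0.175 CPM (SD, n = 10) in WT and 0.926 ± 0.301 CPM (SD, n = 12) in APPPS1ΔE9 mice at 10 months. The log2 fold change was 1.44 ± 0.23 (SE), with an adjusted p of 0.000104 in edgeR's quasi-likelihood test. By p-value this was the 94th of 18232 genes tested, and its log2 fold change was the 22nd highest of the 314 genes called, while by mean level it was only the 1878th from the lowest. In placebo-treated mice alone the difference was 1.54 ± 0.41 (SE; edgeR, adjusted p = 0.440) and in anle138b-treated mice alone 1.35 ± 0.31 (SE; edgeR, adjusted p = 0.105), and neither passed. Leaving out each of the 22 post-plaque mice in turn gave values from 1.31 to 1.69, all past the threshold. The filter on low counts removed Ch25h from both comparisons of chow in WT mice, so it was tested here through the counts of the APPPS1ΔE9 mice. Without the filter the genotype difference was 1.45 (edgeR, adjusted p = 0.000151). With Y-linked expression as a covariate it was 1.36 (edgeR, adjusted p = 0.00205). Among mice with Y-linked expression alone, Ch25h was between 0.155 and 0.706 CPM in 4 WT mice and between 0.403 and 1.45 CPM in 11 APPPS1ΔE9 mice.

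**Figure D2:**
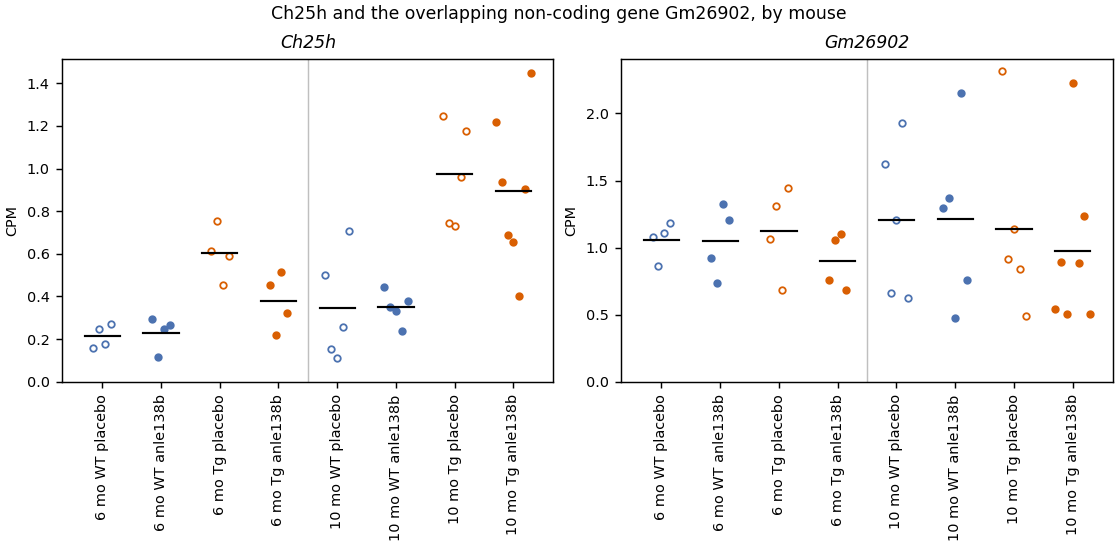
Ch25h (left) and Gm26902 (right) in CPM in each of the 38 mice, by group, where points are mice and bars group means. Ch25h means of placebo-treated APPPS1ΔE9 (Tg) against WT mice are 0.602 against 0.215 CPM at 6 months and 0.972 against 0.345 CPM at 10 months, while Gm26902 spreads from 0.476 to 2.31 CPM over all mice.

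The difference between cohorts was tested directly. The genotype difference of Ch25h was 0.37 ± 0.40 (SE) greater on the log2 scale in the post-plaque than in the pre-plaque group, with an adjusted p of 0.885 (edgeR), so a change of the genotype difference between the cohorts was not shown. The reads of the overlapping gene Gm26902 did not move in the same way. It was between 0.476 and 2.31 CPM over the 38 mice, and its genotype difference in the post-plaque group was -0.18 ± 0.27 (SE; edgeR, unadjusted p = 0.499). Whether reads were counted by strand is not given in the sources used here, so reads of the 357 shared bases could belong to either gene.

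The shares of genes called, at an adjusted p under 0.1 in edgeR's test, set the background for the members. In the comparison of genotypes at 10 months over both chows, 1.72% of 18232 genes were called, and 1 of the 10 members, Ch25h. At an unadjusted p under 0.05 there were 5 of 10 members, Ch25h, Apoe, Lpl, Plin2 and Soat1, all higher in APPPS1ΔE9 mice, against 7.90% of all genes. The median log2 fold change of the 10 members was 0.11 and that of all genes tested -0.00063. Since the members were chosen with earlier results of these data known, these shares and medians are no test of the list. DESeq2 called 3 members here, Ch25h, Apoe and Lpl.

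The other comparisons of genotype called no member by edgeR. In placebo-treated mice of the pre-plaque group, 0.0715% of all genes and 0 of 10 members were called, with 1 member at an unadjusted p under 0.05, against 11.1% of all genes, and 0 called by DESeq2. In anle138b-treated mice of that cohort, 0.047% of genes and 0 of 9 members tested were called, with 1 member at an unadjusted p under 0.05, against 5.64% of all genes, and 0 by DESeq2. For the mean over chows at 6 months, 0.0987% of genes and 0 of 10 members were called, with 1 at an unadjusted p under 0.05, against 8.15% of all genes, and 0 by DESeq2. With so few genes called at 6 months, a count of 0 says nothing about the members.

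In placebo-treated mice of the post-plaque group, 0.324% of genes and 0 of 10 members were called, with 2 members at an unadjusted p under 0.05, against 4.10% of all genes, and 0 by DESeq2. In anle138b-treated mice of that cohort, 0.723% of genes and 0 of 10 members were called by edgeR, with 3 at an unadjusted p under 0.05, against 5.78% of all genes, and DESeq2 called 1, Ch25h. For the difference of the genotype effects between cohorts, 0.176% of genes and 0 of 10 members were called, with 1 at an unadjusted p under 0.05, Plin2, against 7.42% of all genes, and 0 by DESeq2.

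**Figure D3:**
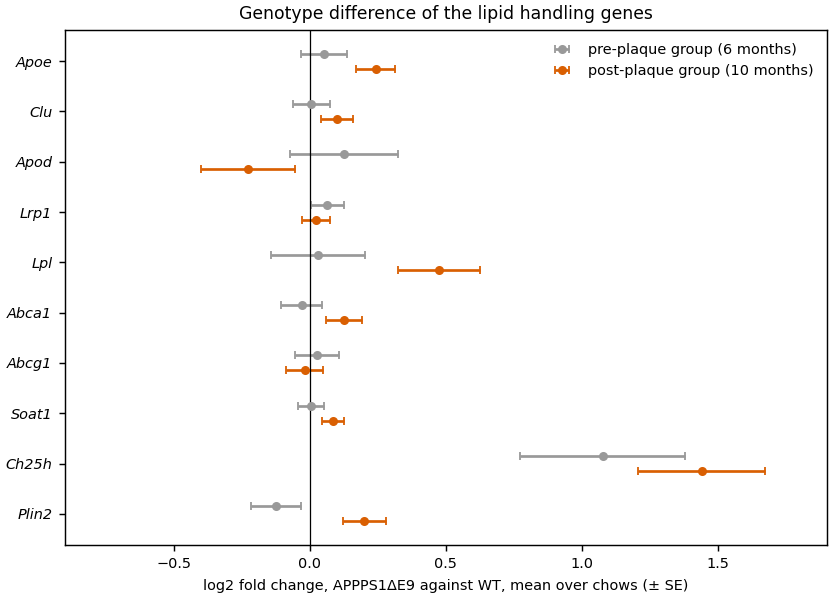
Log2 fold change of APPPS1ΔE9 over WT mice for each member, mean over chows, in the pre-plaque and post-plaque group, with bars of 1 SE. Ch25h has the largest values, 1.08 at 6 months and 1.44 at 10 months, and Apod, at -0.23 at 10 months, the lowest.

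Among the particle proteins, Apoe in the post-plaque group was 1118, 1177, 1052, 928 and 974 CPM in placebo-treated WT mice and 1490, 1155, 1238, 1081 and 1317 CPM in placebo-treated APPPS1ΔE9 mice. Anle138b-treated WT mice had 1047, 903, 1038, 891 and 1126 CPM, and anle138b-treated APPPS1ΔE9 mice had a lowest value of 947, a median of 1101 and a highest of 1590 CPM. The genotypes overlapped under both chows, with the highest levels in APPPS1ΔE9 mice. Over both chows the log2 fold change was 0.24 ± 0.072 (SE), with an unadjusted p of 0.00206 and an adjusted p of 0.114 in edgeR's test. It passed the threshold in DESeq2 (adjusted p = 0.0724) and in 5 of 22 fits with a single mouse left out, in which its adjusted p was between 0.0592 and 0.28.

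At 6 months, Apoe averaged 1356 ± 182 CPM (SD, n = 4) in placebo-treated WT and 1232 ± 60.4 CPM (SD, n = 4) in placebo-treated APPPS1ΔE9 mice, a log2 fold change of -0.14 ± 0.089 (SE) that went to 0.00020 with Y-linked expression as a covariate. In anle138b-treated mice it averaged 1223 ± 93.6 CPM in WT and 1448 ± 119 CPM in APPPS1ΔE9 mice (SD, n = 4 each), a difference of 0.25 ± 0.074 (SE; edgeR, adjusted p = 0.783). Neither difference passed the test, and the mean over chows was 0.05 ± 0.084 (SE; edgeR, adjusted p = 0.942).

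Clu, whose product binds lipid and misfolded protein, averaged 879 ± 85.9 CPM (SD, n = 10) in WT and 947 ± 94.6 CPM (SD, n = 12) in APPPS1ΔE9 mice at 10 months. Its difference was 0.10 ± 0.059 (SE; edgeR, adjusted p = 0.755). Apod was the only apolipoprotein member with lower values in APPPS1ΔE9 mice at 10 months, at 141 ± 36.9 CPM (SD, n = 12) against 164 ± 56.6 CPM (SD, n = 10). The ranges, 107 to 220 CPM and 94.5 to 241 CPM, overlapped almost fully, and the log2 fold change was -0.23 ± 0.17 (SE; edgeR, adjusted p = 0.862).

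Lpl, which is made by microglia and other cells in the brain, was 67.9, 73.3, 72.3, 57.2 and 74.7 CPM in placebo-treated WT mice of the post-plaque group and 65.4, 51.7, 82.8, 98.3 and 137 CPM in placebo-treated APPPS1ΔE9 mice. It was 61.6, 54.7, 76.5, 35.3 and 69.7 CPM in anle138b-treated WT mice, and the anle138b-treated APPPS1ΔE9 mice had a lowest value of 60.8, a median of 91.5 and a highest of 124 CPM. Of the 12 APPPS1ΔE9 mice, 9 lay above all WT mice and 3 among them. Over both chows the difference was 0.48 ± 0.15 (SE), with an unadjusted p of 0.00324 and an adjusted p of 0.155 in edgeR's test. DESeq2 gave an adjusted p of 0.0904, and 4 of the 22 fits without a single mouse passed, with values from 0.36 to 0.55. At 6 months Lpl averaged 84.9 ± 18.6 CPM in WT and 87.2 ± 18.1 CPM in APPPS1ΔE9 mice (SD, n = 8 each). The genotype difference was 0.44 ± 0.23 (SE) greater at 10 than at 6 months, which did not pass (edgeR, adjusted p = 0.695).

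The receptor Lrp1 averaged 586 ± 34.2 CPM (SD, n = 10) in WT and 592 ± 45.3 CPM (SD, n = 12) in APPPS1ΔE9 mice at 10 months, a difference of 0.02 ± 0.052 (SE; edgeR, adjusted p = 0.966). Of the exporters, Abca1 averaged 62.7 ± 7.98 CPM in WT and 68.2 ± 7.77 CPM in APPPS1ΔE9 mice (SD, n = 10 and n = 12), a difference of 0.12 ± 0.066 (SE; edgeR, adjusted p = 0.697). Abcg1 averaged 59.1 ± 8.90 and 58.6 ± 6.56 CPM in the same mice, and its log2 fold change, -0.02 ± 0.070 (SE; edgeR, adjusted p = 0.979), took either sign when single mice were left out.

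Soat1 varied least of all members, from 32.7 to 43.8 CPM over the 38 mice. At 10 months it averaged 38.7 ± 2.39 CPM (SD, n = 10) in WT and 41.1 ± 1.98 CPM (SD, n = 12) in APPPS1ΔE9 mice, a difference of 0.085 ± 0.041 (SE) with an unadjusted p of 0.0485 and an adjusted p of 0.627 (edgeR).

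Plin2 was between 4.58 and 5.80 CPM in the 10 WT mice of the post-plaque group. It was 5.51, 5.09, 6.57, 5.69 and 5.11 CPM in placebo-treated APPPS1ΔE9 mice, which overlapped with WT, and it had a lowest value of 5.51, a median of 6.26 and a highest of 7.95 CPM in anle138b-treated APPPS1ΔE9 mice. In the latter 6 of 7 mice lay above all anle138b-treated WT mice. The genotype difference was 0.04 in placebo-treated mice and 0.35 ± 0.10 (SE; edgeR, adjusted p = 0.328) in anle138b-treated mice, and over both chows 0.20 ± 0.080 (SE; edgeR, adjusted p = 0.432). With Y-linked expression as a covariate, the difference in anle138b-treated mice was 0.46 with an adjusted p of 0.0351 (edgeR), past the threshold.

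The comparison of chows asked whether anle138b moved these genes. In WT mice of the pre-plaque group, 0% of all genes and 0 of 9 members tested were called, and in WT mice of the post-plaque group 0% of genes and 0 of 9 members. In both, no member was at an unadjusted p under 0.05 in edgeR's test and DESeq2 called 0 members. In APPPS1ΔE9 mice at 6 months, 0.0529% of genes and 0 of 10 members were called by edgeR, with 3 members at an unadjusted p under 0.05, against 13.1% of all genes. DESeq2 called 1 of them, Apoe. In APPPS1ΔE9 mice at 10 months, 0% of genes and 0 of 10 members were called, with 0 members at an unadjusted p under 0.05 and 0 by DESeq2.

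The 3 members were Apoe, Abcg1 and Ch25h. Apoe was 1256, 1189, 1176 and 1306 CPM in placebo-treated and 1563, 1469, 1480 and 1280 CPM in anle138b-treated APPPS1ΔE9 mice at 6 months. Of the anle138b-treated mice 3 lay above all placebo-treated ones and 1 among them. The difference was 0.23 ± 0.072 (SE), with an unadjusted p of 0.00704 and an adjusted p of 0.310 in edgeR's test, and DESeq2 gave an adjusted p of 0.0610.

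Abcg1 was 61.1, 64.6, 60.2 and 60.8 CPM in placebo-treated and 57.03, 57.18, 47.17 and 56.94 CPM in anle138b-treated APPPS1ΔE9 mice at 6 months. The groups did not overlap, and the mouse at 47.17 CPM stood below the other 3. The log2 fold change was -0.18 ± 0.065 (SE; edgeR, adjusted p = 0.337). Ch25h, whose values are given above, averaged 0.602 ± 0.122 CPM in placebo-treated and 0.377 ± 0.133 CPM in anle138b-treated APPPS1ΔE9 mice (SD, n = 4 each), a log2 fold change of -0.71 ± 0.31 (SE; edgeR, unadjusted p = 0.0437, adjusted p = 0.372). The ranges of both chows overlapped.

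Values of marker genes also differed in this comparison, in which chow and lane cannot be told apart. Of the 9 plaque-associated microglia genes tested, 8 had lower values in the anle138b-treated mice, with a median log2 fold change of -0.58. In edgeR's test 7 of the 9 were at an unadjusted p under 0.05, against 13.1% of all genes, and 0 of the 9 were called. Their summed level was between 135 and 195 CPM in the placebo-treated and between 117 and 131 CPM in the anle138b-treated APPPS1ΔE9 mice. All 7 choroid plexus genes had higher values, with 0 at an unadjusted p under 0.05 and 0 called in edgeR's test. Their summed level was 6691, 65.8, 722 and 189 CPM in the placebo-treated and 6821, 6049, 7501 and 173 CPM in the anle138b-treated mice, so 3 of 4 were low with placebo and 3 of 4 high with anle138b. The part of these markers in the values of Apoe, Abcg1 and Ch25h was not tested.

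In the post-plaque group, Ch25h averaged 0.972 ± 0.239 CPM (SD, n = 5) in placebo-treated and 0.893 ± 0.354 CPM (SD, n = 7) in anle138b-treated APPPS1ΔE9 mice, a log2 fold change of -0.12. Averaged over both genotypes and cohorts, the effect of anle138b on the members lay between -0.15 for Ch25h and 0.11 for Plin2, and 0% of all genes and 0 of 10 members were called, with 0 members at an unadjusted p under 0.05 in edgeR and 0 by DESeq2. For the interaction of genotype and anle138b, 0% of genes and 0 of 10 members were called in either cohort by edgeR, and 0 by DESeq2. There was 1 member at an unadjusted p under 0.05 in the pre-plaque group, against 6.54% of all genes, which was Apoe with 0.38 ± 0.17 (SE; edgeR, adjusted p = 0.712), and 0 in the post-plaque group.

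**Figure D4:**
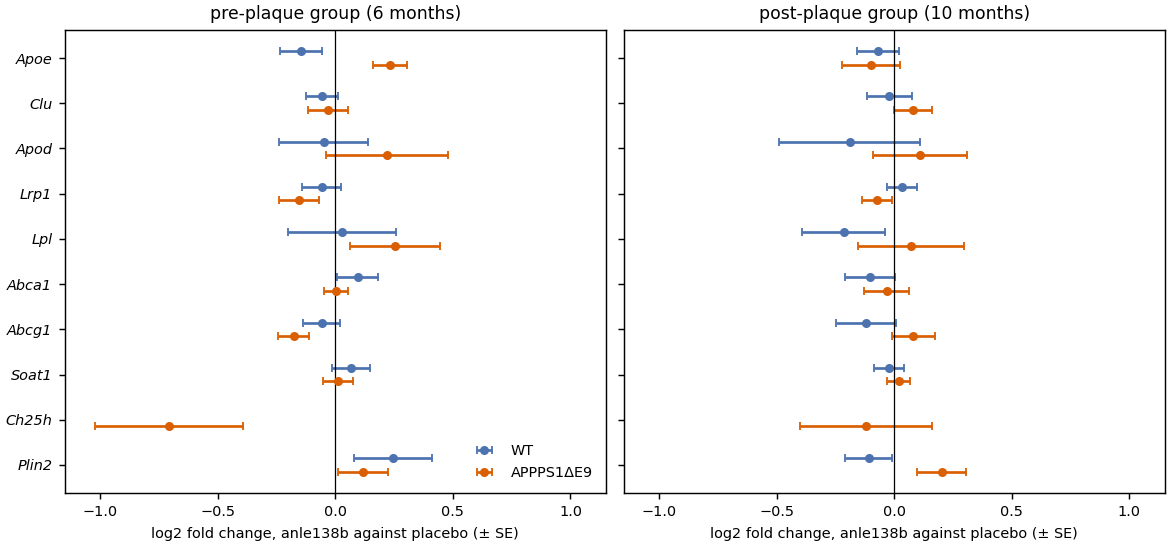
Log2 fold change of anle138b-treated over placebo-treated mice for each member in WT and APPPS1ΔE9 mice of both cohorts, with bars of 1 SE (Ch25h in WT mice was removed by the filter on low counts). No member passed the threshold in edgeR's test, and Ch25h in APPPS1ΔE9 mice at 6 months has the lowest value, -0.71.

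Age, the ages over which chow was given and cohort cannot be told apart, so the levels of the cohorts are set side by side with no test. In WT mice the mean of Plin2 at 10 months was 0.71 times that at 6 months, and the 2 ranges, 4.58 to 5.80 and 5.85 to 10.9 CPM, did not overlap. Lpl had a ratio of 0.76 and Apoe of 0.79, from 1290 CPM at 6 to 1025 CPM at 10 months. The ratio was 1.57 for Ch25h and between 0.86 and 1.10 for the other 6 members. The summed level of 7 choroid plexus genes ranged from 65.8 to 7981 CPM in the pre-plaque mice and from 33.1 to 306 CPM in the post-plaque mice but 1, which had 4362 CPM. Its part in the differences between cohorts was not tested.

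Other genes of the pathway were taken from 6 lists, of which 96 genes were tested in the fit of all 8 groups. In the genotype comparison at 10 months over both chows, 6 of the 96 were called, all higher in APPPS1ΔE9 mice, against 1.72% of all genes. Trem2 was called among the lipoprotein receptors and sorting partners, and 1 of the 18 exporters and carriers. Of the 17 sterol-sensing nuclear receptors and transcription factors, 3 were called. None of the 7 apolipoproteins, 17 lipases and sterol-modifying enzymes and 11 droplet proteins tested was called. At an unadjusted p under 0.05 these 3 lists had 0, 1 and 0 genes. The median log2 fold change of the 96 genes was 0.0092.

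Trem2, the microglial receptor that binds lipids and APOE, was between 12.6 and 19.6 CPM in WT and between 24.9 and 51.5 CPM in APPPS1ΔE9 mice at 10 months, with no overlap. Its log2 fold change was 1.36 ± 0.12 (SE; edgeR, adjusted p = 4.21e-10). Npc2, the lysosomal protein that passes cholesterol to NPC1, was between 44.5 and 55.8 CPM in WT and between 58.4 and 76.2 CPM in APPPS1ΔE9 mice, also with no overlap, a difference of 0.39 ± 0.061 (SE; edgeR, adjusted p = 4.91e-05). Both were also called in placebo-treated mice alone, Trem2 at 1.24 and Npc2 at 0.37, and in anle138b-treated mice alone, at 1.47 and 0.41. The difference in placebo-treated mice did not pass for either gene with Y-linked expression as a covariate, and for Npc2 it was also lost in 7 of 10 fits with a single mouse left out, all but those without placebo-treated WT replicate 2 and placebo-treated APPPS1ΔE9 replicates 3 and 4.

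Trem2 and Npc2 were also the 2 genes of these lists whose genotype difference was greater in the post-plaque than in the pre-plaque group, by 0.85 ± 0.18 (SE; edgeR, adjusted p = 0.0490) and 0.47 ± 0.093 (SE; edgeR, adjusted p = 0.0373). The call for Trem2 was lost without the filter on low counts, and without any of 4 mice, which were replicate 4 of the placebo-treated WT, replicate 2 of the anle138b-treated WT and replicate 5 of the placebo-treated APPPS1ΔE9 post-plaque mice, and replicate 2 of the anle138b-treated APPPS1ΔE9 pre-plaque mice.

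Srebf2, the transcription factor that turns on cholesterol synthesis, was 0.22 ± 0.051 higher (log2, SE; edgeR, adjusted p = 0.0132), and it was 0.25 ± 0.059 higher at 6 months (SE; edgeR, adjusted p = 0.128), which did not pass. Mlxipl, a glucose-sensing factor of lipid synthesis, was 0.54 ± 0.10 higher (SE; edgeR, adjusted p = 0.000752). Insig1, which holds back sterol regulatory factors and is itself their target, was 0.19 ± 0.056 higher (SE; edgeR, adjusted p = 0.0910) and passed in only 6 of 22 fits with a single mouse left out. In Srebf2, Mlxipl and Insig1 the ranges of the genotypes overlapped at 10 months. At 6 months Srebf2 was between 169 and 194 CPM in WT and between 197 and 234 CPM in APPPS1ΔE9 mice, with no overlap.

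In the other comparisons of the fits, 0 of these related genes were called at 6 months and between placebo and anle138b, 3 of 90 tested in placebo-treated and 2 of 89 in anle138b-treated mice of the post-plaque group, and 2 of 96 for the difference between cohorts. All were higher in APPPS1ΔE9 mice, and they were Trem2, Npc2 and, in placebo-treated mice, Insig1 at 0.36 (edgeR, adjusted p = 0.0463), which was lost with Y-linked expression as a covariate and in 7 of 10 fits with a single mouse left out.

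Cell type markers were set beside these values. In the genotype comparison at 10 months, 7 of 9 microglia genes and 9 of 10 genes of plaque-associated microglia were called higher. The plaque-associated list holds Trem2. Its genes Cst7 and Ccl4 were at 0 in some mice, and Ccl3 and Itgax were as low as 0.078 and 0.12 CPM. For the comparison of chows in post-plaque mice, the filter on low counts kept 7 of its 10 genes in WT mice. It kept all 10 in APPPS1ΔE9 mice. The genes removed in WT mice were therefore tested between genotypes through the counts of the APPPS1ΔE9 mice. Of the astrocyte genes 1 of 8, Aqp4, and of the reactive astrocyte genes 2 of 6 tested, Gfap and Osmr, were called higher, and 0 genes were called in the lists of macrophages, oligodendrocytes and their precursors, endothelium, pericytes, fibroblasts, choroid plexus, neurons, dentate granule cells, pyramidal cells, thalamus and blood. In these 12 lists, 6 genes were at an unadjusted p under 0.05. The summed level of the microglia list ranged from 363 to 467 CPM in WT and from 488 to 799 CPM in APPPS1ΔE9 mice at 10 months, and that of the plaque-associated list from 85.0 to 107 CPM and from 134 to 231 CPM. At 6 months the plaque-associated list ranged from 101 to 122 CPM in WT and from 117 to 195 CPM in APPPS1ΔE9 mice. These lists moved with the same comparison as Ch25h, Apoe and Lpl, and their part in those values was not tested.

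How the members varied within groups was described by Spearman's rho of their deviations from the group means over the 38 mice, which share dissection and depth. Abca1 went with Lpl (0.63), with Apod (0.60), with Clu (0.58) and with Abcg1 (0.58), and Apoe went with Apod (0.56). The lowest rho was that of Ch25h and Plin2, -0.43. Abcg1, Abca1, Apod and Lpl went with the summed level of the oligodendrocyte list, with rho of 0.84, 0.72, 0.65 and 0.61. That list ranged from 2521 to 7962 CPM in the post-plaque mice. The dentate granule cell list gave 0.75 for Abcg1, 0.72 for Abca1, 0.67 for Lpl and 0.62 for Apod. The microglia list gave 0.65, 0.53, 0.50 and 0.55 for the same genes. The oligodendrocyte precursor list gave -0.60 for Abca1, -0.50 for Abcg1 and -0.56 for Apod, and its highest value was 0.28 for Lrp1. Apoe had a rho of 0.47 with the plaque-associated microglia list, 0.48 with the macrophage list, 0.41 with the endothelium list and -0.51 with the neuron list. Apod had 0.56 with the macrophage list and 0.57 with the endothelium list. With the neuron list Apod had -0.63, Abca1 -0.55, Clu -0.43 and Plin2 -0.42, and only Ch25h and Lrp1 were positive, at 0.04 and 0.05. Plin2, Soat1 and Clu had 0.48, 0.46 and 0.40 with the choroid plexus list. With the fibroblast list Plin2 had 0.48 and Soat1 0.59. Clu had 0.48 with the reactive astrocyte list and 0.45 with the microglia list.

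**Figure D5:**
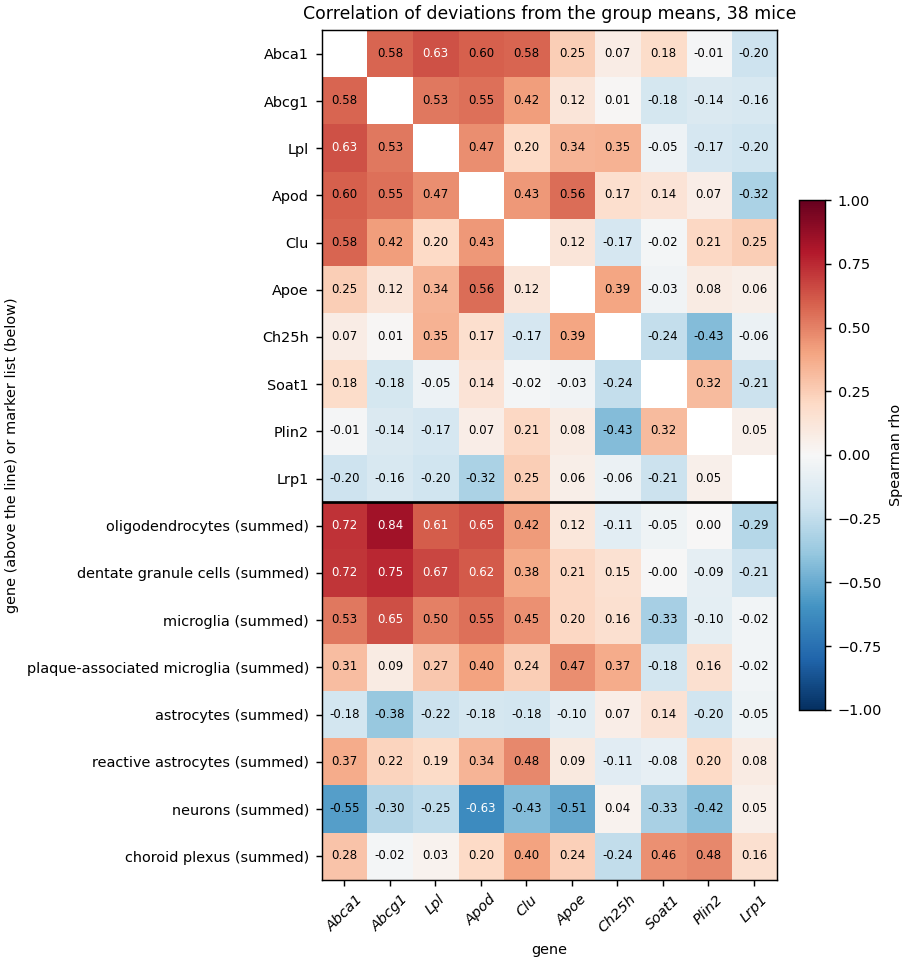
Spearman's rho of the deviations of log2 CPM from the group mean, over 38 mice, between the 10 members and between members and the summed level of 8 cell type lists. Abcg1 and the oligodendrocyte list have 0.84, and Ch25h and Plin2 have -0.43.

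Among all genes with a mean of at least 1 CPM, the 2 whose deviations were most like those of Apoe over the 38 mice were Slc16a11 (rho 0.87) and Rex1bd (0.84). For Clu they were Sv2c and Gsn (0.80 each), for Lpl Mau2 (0.81) and Snrnp35 (0.76), and for Apod Enpp1 (0.92) and Rnase4 (0.88). Abca1 was most like Tfdp2 (0.86) and Abcg1 most like Gpr37 and Dmtn (0.90 each), of which Gpr37 is a receptor of oligodendrocytes. For Lrp1 they were Gramd1a (0.79) and Ubr4 (0.78), for Soat1 Rsph4a (0.72) and Magt1 (0.70), for Plin2 Maob (0.67) and Manf (0.66), and for Ch25h Pdzd3 (0.73) and Parn (0.66). These values are the highest of many genes and carry no test.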

How the data were processed

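The authors isolated hippocampal RNA with TRIZOL, made TruSeq mRNA libraries, aligned reads to mm10 with STAR and counted them with HTSeq in intersection-nonempty mode. They deposited raw read counts of 48709 genes per mouse. Which annotation release was used, and whether counting was stranded, is not given in the sources used here. Groups came from the sample titles.

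Genes were named with GENCODE M21 (GRCm38), which held 48349 of the identifiers. The test was edgeR 4.0.16 in R 4.3.3 (TMM, robust glmQLFit, glmQLFTest) on genes kept by filterByExpr with a minimum count of 10 and a minimum total of 15, for each pair of groups and in a fit of all 8 groups with 6 contrasts. Benjamini-Hochberg adjusted p under 0.1 was called, and 0.05, which the study's methods state, was an alternative. SE is the log2 fold change divided by the root of F. CPM used TMM factors over 38 mice, and RPKM the union exon length. Deviations used log2 (CPM + 0.5). Promoters came from RefSeq (GRCm38.p6).

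Alternatives were DESeq2 1.42.0, RLE factors, no filter, a Y-linked covariate, the replicate number as a block, a fit per cohort, a lane term, lane 4 only and each mouse left out. The tests were tried on simulated counts. The members and lists were chosen with earlier results of these data known. Every member was reported, as was every listed gene called in a comparison, up to 8 per comparison by size, except for items that are withheld and not reported here. The labels name separate mice, so p-values measure the spread between mice. No libraries were duplicates: chi-square per degree of freedom between the 75 pairs of a group was at least 3.17. Low counts limit the precision of Ch25h, and depth covers counting error only.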

Additional observations from a re-analysis of the deposited data

Results flagged for a closer look

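Of 80 sets of 4 to 7 mice, 10 members in 8 groups, 3 held a mouse far from the others of its group. Chance alone gives about 1 in 20, or 5%. Abca1 was 63.4 CPM in replicate 1 of the APPPS1ΔE9 mice on anle138b at 6 months, where the nearest mouse had 70.3 CPM. Abcg1 was 47.2 CPM in replicate 3 of the same group, where the nearest had 56.9 CPM. Lrp1 was 509 CPM in replicate 1 of the placebo-treated WT mice of the post-plaque group, where the nearest had 586 CPM.

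The genotype difference was greater in the post-plaque than in the pre-plaque group for 2 related genes by a test of the difference itself in edgeR. It was 0.85 greater on the log2 scale for Trem2 (adjusted p = 0.0490) and 0.47 greater for Npc2 (adjusted p = 0.0373). For Npc2 the genotype difference was -0.07 at 6 and 0.39 at 10 months, and for Trem2 it was 0.51 and 1.36.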

How the results depend on the processing

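The number of members called stayed the same in 310 of 325 alternatives over 14 comparisons and was higher in 15. In the post-plaque genotype comparison over both chows it was 1, and 3 with DESeq2 (Ch25h, Apoe and Lpl), and from 1 to 3 with single mice left out. In anle138b-treated post-plaque mice it was 0 and rose to 1 with DESeq2 (Ch25h), to 1 with the Y-linked covariate (Plin2), and was 0 to 1 with single mice left out, with 1 (Ch25h) without replicate 4 or 5 of the anle138b-treated APPPS1ΔE9 mice. In placebo-treated pre-plaque mice it was 1 without the filter on low counts (Ch25h), and for anle138b in pre-plaque APPPS1ΔE9 mice 1 with DESeq2 (Apoe). The cause of these changes was not tested. Of 1233 alternative fold changes of 48 results, 1160 kept direction and side of the threshold, 45 fell short of it, 17 newly passed and 11 changed sign. Abcg1 in the post-plaque genotype comparison was 0.011 with the Y-linked covariate and -0.064 to 0.0089 with single mice left out. Apoe in placebo-treated pre-plaque mice was 0.00020 with the Y-linked covariate, and Plin2 in placebo-treated post-plaque mice was between -0.022 and 0.078 with single mice left out.

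The labels link same-numbered mice by nothing but the number. The correlation of their deviations was between -0.70 and 0.70 over the pairs. Its mean ranged from -0.31 between chows in post-plaque APPPS1ΔE9 mice to 0.39 between chows in post-plaque WT mice. Whether they share a step of processing was not tested. With the replicate number as a block, the count of members called was the same in 14 of 14 comparisons. It was 0 in all but the post-plaque genotype comparison over both chows, where Ch25h was 1.35 (edgeR, adjusted p = 0.000700). The block lost the calls of Trem2 (1.34) and Npc2 (0.39) in anle138b-treated post-plaque mice, of Npc2 (0.38) and Insig1 (0.36) in placebo-treated ones and of Insig1 (0.17) over both chows.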
